A study of Arabidopsis thaliana with 6 samples.

Results

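A set of 10 type I MADS-box genes of the M-gamma class were followed in whole Arabidopsis thaliana seeds: PHE1 (AT1G65330), PHE2 (AT1G65300), AGL34 (AT5G26580), AGL35 (AT5G26630), AGL36 (AT5G26650), AGL90 (AT5G27960), AGL86 (AT1G31630), AGL92 (AT1G31640), AGL80 (AT5G48670) and AGL48 (AT2G40210). They were chosen by locus identifier as the M-gamma genes around PHE1, and all 10 of them were found among the 33323 loci of the deposited table. Seeds were taken by hand from siliques at 6 days after pollination. The wild type (WT) seeds came from self-pollinated Col-0 plants. The others came from self-pollinated plants of the same Col-0 background carrying DD25::IaaH, in which the DD25 promoter, known from Arabidopsis to be active in the central cell and early endosperm, drives IaaH. This enzyme, of bacterial origin, converts indole-3-acetamide to auxin. Each genotype had 3 libraries, which the series' design text calls biological replicates. The labels do not give the number of transgenic lines, how many plants were pooled, or whether the transgene was homozygous. The study asked how auxin acts on the formation of cells in the endosperm, the nourishing tissue beside the embryo.

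M-gamma proteins are transcription factors that bind DNA as dimers, usually with a partner of the related M-alpha class. In Arabidopsis many genes of both classes are active in the central cell of the female gametophyte and in the early endosperm, while its nuclei divide without making walls, and they are turned down when walls form. PHE1 is the best known of them: its paternal copy is expressed, while the maternal copy is held silent by the seed-specific Polycomb complex FIS-PRC2. AGL36 is imprinted the other way, with expression from the maternal copy, and AGL80 is required for the central cell and pairs with the M-alpha protein AGL61.

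The 10 genes fell into sets of near copies, which matters for how reads could be assigned. Coding sequences were read from the RefSeq genome TAIR10.1, where they were located by locus identifier, since the deposited table holds no coordinates. AGL36 and AGL90 were identical at 96.3% of aligned bases, AGL34 and AGL90 at 92.5%, AGL34 and AGL36 at 91.9%, PHE1 and PHE2 at 88.7%, and AGL86 and AGL92 at 82.3%. The other 40 of 45 pairs ranged from 55.9% to 71.2%. AGL35, AGL80 and AGL48 had no near copy in the set, with 66.4%, 64.4% and 61.7% to their closest relative among the 10. The 180 bases that open the coding sequence, which encode most of the MADS domain, are shown for the 2 closest expressed pairs, with capitals at the bases where the members of a pair differ. The PHE1 stretch lies at chr1:24267141-24267320 on the minus strand, PHE2 at chr1:24254929-24255108 on the plus strand, AGL36 at chr5:9343785-9343964 on the plus strand and AGL90 at chr5:9992591-9992770 on the minus strand (TAIR10.1).
PHE1: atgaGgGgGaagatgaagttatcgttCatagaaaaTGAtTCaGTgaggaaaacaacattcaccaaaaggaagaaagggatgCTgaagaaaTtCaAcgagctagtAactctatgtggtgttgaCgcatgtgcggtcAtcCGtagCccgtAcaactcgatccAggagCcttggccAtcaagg
PHE2: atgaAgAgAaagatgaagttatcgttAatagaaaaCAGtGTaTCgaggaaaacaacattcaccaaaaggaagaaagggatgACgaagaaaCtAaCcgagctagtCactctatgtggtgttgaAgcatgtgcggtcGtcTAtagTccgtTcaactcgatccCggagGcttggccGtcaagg
AGL36: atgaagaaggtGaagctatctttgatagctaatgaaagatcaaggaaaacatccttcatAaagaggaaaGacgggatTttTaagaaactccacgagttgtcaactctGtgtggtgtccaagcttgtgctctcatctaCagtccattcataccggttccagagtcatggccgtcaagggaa
AGL90: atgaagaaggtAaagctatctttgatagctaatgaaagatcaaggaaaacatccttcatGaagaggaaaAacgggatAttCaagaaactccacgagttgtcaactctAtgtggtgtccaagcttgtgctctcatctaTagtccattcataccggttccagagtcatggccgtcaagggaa
In this stretch PHE1 and PHE2 differed at 26 bases and AGL36 and AGL90 at 7. Stretches of 125 bases, the length of the sequenced reads, were taken within each coding part of the 10 genes. Those across the join of the 2 coding parts in AGL90 and in AGL92 were not searched. No stretch searched had an exact copy elsewhere in the genome. With up to 2 mismatches allowed, a match elsewhere was found for 1.54% of the stretches in PHE1, 1.54% in PHE2, 21.4% in AGL36 and 15.2% in AGL90. It was 0% in AGL34, AGL35, AGL86, AGL92, AGL80 and AGL48. The values of AGL36 and AGL90 are therefore less certain than the others, because the authors' treatment of reads with several matches is not given in the sources used here.

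**Figure D1:**
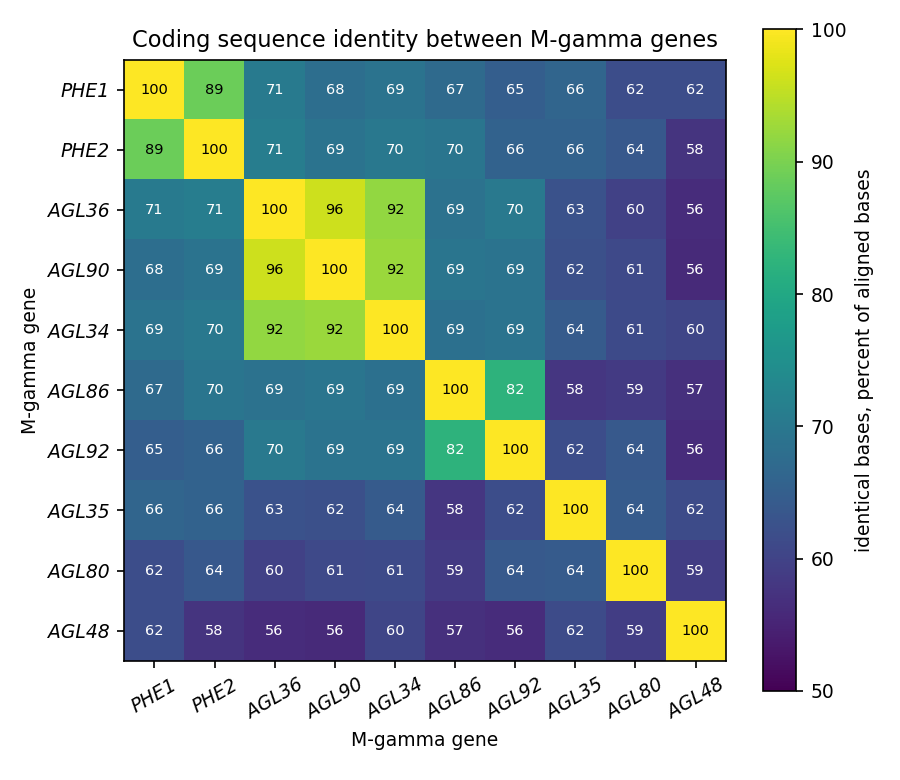
Identity between the coding sequences of the 10 genes, as the percent of aligned bases that are identical (colour and number, pairwise global alignments). The blocks of near copies are PHE1 with PHE2 (88.7%), AGL36 with AGL90 (96.3%) and with AGL34 (91.9%), and AGL86 with AGL92 (82.3%).

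Of the 10 genes, 7 rose in DD25::IaaH seeds: PHE1, PHE2, AGL35, AGL36, AGL90, AGL86 and AGL92. AGL80 and AGL48 did not pass the test, and AGL34 was too low to be tested. Calls are from limma on log2(RPKM + 0.5) over the 20880 genes whose mean reached 0.5 RPKM, at an adjusted p under 0.05 (RPKM, reads scaled to gene length and library depth). Thus 7 of 9 tested genes were called higher, where 8.25% of all tested genes were. In limma and in voom no gene of the 9 had a negative fold change, so 0 were called lower at either an adjusted or an unadjusted p under 0.05. At an adjusted p under 0.05, 6.72% of all tested genes were called lower. For these 7 every DD25::IaaH library also lay above every WT library, which held for 18.4% of all tested genes. AGL36, AGL90 and AGL48, 3 of the 9, reached the filter only through their DD25::IaaH libraries, so the count is a description of these genes. Over all 10 genes, without the filter, the median log2 difference was 1.79, against -0.07 over all loci with any read. The count was 4 with DD25::IaaH 1 left out and 4 with both WT 1 and WT 2 left out; PHE1, PHE2, AGL35 and AGL36 kept their call in all 15 alternative settings.

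**Figure D2:**
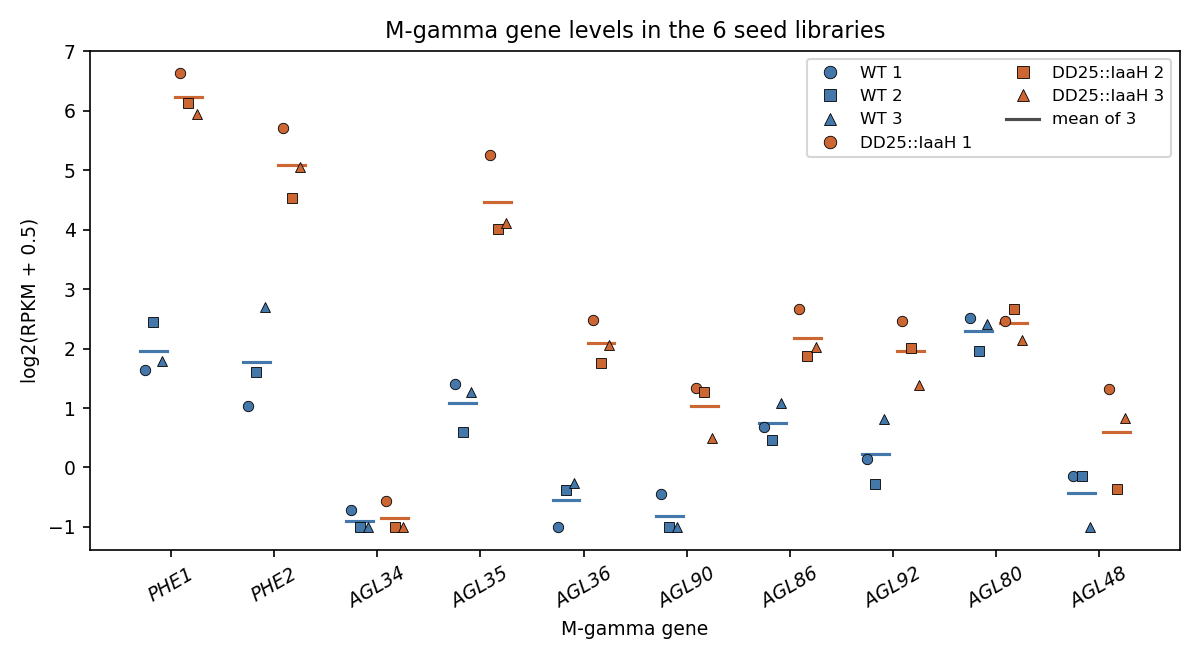
Level of each of the 10 genes, log2(RPKM + 0.5), in WT (blue) and DD25::IaaH (orange) libraries, with the symbol giving the replicate and the bar the mean of the 3 log2 values. PHE1, PHE2 and AGL35 show the widest gaps between genotypes; the genotypes overlap for AGL80, and AGL34 lies at the bottom in both.

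Seeds are bulk samples, so a larger share of cells of a type and more RNA per cell cannot be told apart here. Of 7 endosperm markers 4 rose, CKX2, MINI3, FIS2 and FWA, where 8.25% of all tested genes were called higher. The first 3 of these are also in lists given below as regulators. The summed level of all 7 markers, most of it from SUC5 and ZOU, was 121 to 158 RPKM across WT libraries and 193 to 214 RPKM across DD25::IaaH libraries. The largest gains in mean were those of CKX2 (WT 1.68, DD25::IaaH 30.7 RPKM) and SUC5 (WT 102, DD25::IaaH 130 RPKM). The mean of ZOU was lower in DD25::IaaH (28.8 RPKM, WT 33.5 RPKM). None of the 7 was at 0 throughout. The endosperm factor ZOU (23.8 to 37.4 RPKM over the 6 libraries) and the receptor kinase gene IKU2 did not pass. The sucrose transporter SUC5 did not pass either, with a log2 fold change of 0.35, although its groups were separate. It had 85.96 to 115 RPKM in WT and 118 to 139 RPKM in DD25::IaaH. Of 9 tested embryo markers 1 fell, the homeobox gene WOX9, where 6.72% of all tested genes were called lower. The summed level of the 10 listed was 240 to 272 RPKM for WT and 216 to 241 RPKM for DD25::IaaH. Of 8 seed coat markers 3 rose and 1 fell, with sums of 1544 to 1767 RPKM and 1539 to 1632 RPKM. Pollen markers stayed low in both, at sums of 3.39 to 4.66 RPKM and 3.16 to 4.30 RPKM, with TIP1;3 at 0 in all 6 libraries. The part of tissue make-up in the M-gamma values was not tested. Depth, rebuilt from the steps in which RPKM values rise, was 6495017 to 17785020 reads, and pseudogenes with a value above 0 made up 82.1% of those listed in WT 1, 63.8% in WT 2 and 21.3% to 32.9% in each library besides. The part of that difference in the low WT values was not tested.

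PHE1 had the highest level of the set in DD25::IaaH seeds. It measured 2.61, 4.92 and 2.97 RPKM in WT 1 to 3 and 98.4, 69.8 and 61.3 RPKM in DD25::IaaH 1 to 3. The lowest DD25::IaaH library was thus far above the highest WT library. These values rested on 39, 37 and 24 reads in WT and 889, 381 and 469 reads in DD25::IaaH. The mean rose from 3.502 ± 1.24 to 76.5 ± 19.4 RPKM (SD, n = 3), 21.9 times the WT mean. The log2 fold change was 4.28 ± 0.24 (SE), with a limma adjusted p of 8.33e-06, and 4.09 to 4.55 over the alternatives.

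PHE2, the neighbour and near copy of PHE1, which the reference annotation also names as a target of the FIS Polycomb complex, rose as well. It had 1.55, 2.54 and 5.97 RPKM in WT 1 to 3 and 51.7, 22.6 and 32.7 RPKM in DD25::IaaH 1 to 3. The groups were separate, and WT 3 stood above the other WT libraries for PHE2 but not for PHE1. The mean went from 3.35 ± 2.32 to 35.7 ± 14.8 RPKM (SD, n = 3). On the log2 scale PHE2 rose by 3.32 ± 0.42 (SE), with a limma adjusted p of 0.000869. The ratio of PHE1 to PHE2 was 1.69, 1.94 and 0.498 in WT and 1.91, 3.09 and 1.88 in DD25::IaaH. PHE1 was the higher of the pair in every library except WT 3. The log2 ratio averaged 0.24 ± 1.08 in WT and 1.15 ± 0.41 in DD25::IaaH (SD, n = 3), and a two-sided exact permutation test gave p = 0.30, where 0.10 is the smallest that 3 against 3 allows. A difference between the fold changes of the pair was thus not shown. Rebuilt gene lengths of 840 bases for PHE1 and 837 bases for PHE2 equal their coding lengths in RefSeq, and so does the 657 bases of AGL35.

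AGL35, an M-gamma gene without a name in the reference table, also rose. Its levels were 2.14, 1.02 and 1.90 RPKM in WT 1 to 3 and 37.7, 15.7 and 16.7 RPKM in DD25::IaaH 1 to 3. DD25::IaaH 1 was more than double the other DD25::IaaH libraries, and all of them lay above WT. The mean rose from 1.69 ± 0.589 to 23.4 ± 12.4 RPKM (SD, n = 3). The log2 fold change was 3.37 ± 0.35 (SE), with a limma adjusted p of 0.000253.

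AGL36, the maternally expressed gene, was close to absent in WT. It had 0, 0.273 and 0.339 RPKM in WT 1 to 3, from 0, 3 and 4 reads, and 5.08, 2.89 and 3.67 RPKM in DD25::IaaH 1 to 3, from 67, 23 and 41 reads. For AGL36, 3 reads correspond to 0.137 RPKM in WT 1, the deepest library. The log2 fold change was 2.64 ± 0.33 (SE), with a limma adjusted p of 0.000765. For so few WT reads this value depends on the pseudocount: it was 3.93 with a pseudocount of 0.1 and 5.15 with limma voom on rebuilt reads. Pooled over libraries the read rate was 25.8 times that of WT, with a 95% exact counting interval of 12.2 to 65.5. AGL90, its closest copy, had 0.234, 0 and 0 RPKM in WT 1 to 3 and 2.03, 1.92 and 0.913 RPKM in DD25::IaaH 1 to 3. The groups of AGL90 were separate on 4 reads in WT and 41 in DD25::IaaH. Its log2 fold change was 1.85 ± 0.38 (SE), with a limma adjusted p of 0.0118, and it was 3.45 with a pseudocount of 0.1 and 3.91 with voom. The pooled read rate of AGL90 was 14.1 times that of WT, with an interval of 5.12 to 54.3. The call for AGL90 did not hold in 3 alternatives: its adjusted p was 0.0664 with DD25::IaaH 1 left out, 0.0559 with DD25::IaaH 2 left out, and 0.0826 with both WT 1 and WT 2 left out.

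AGL34 shares most of its coding sequence with AGL36 and AGL90 but was barely detected. It had 2 reads in WT 1 and 2 reads in DD25::IaaH 1, equal to 0.108 and 0.179 RPKM, and none in the other 4 libraries. For AGL34, 3 reads would equal 0.163 to 0.445 RPKM, depending on the library. A difference between genotypes was not detectable at this depth. AGL34 lies on the same stretch of chromosome 5 as AGL35 and AGL36, 41.4 kb from AGL35, and AGL35 and AGL36 are 5.80 kb apart (TAIR10.1).

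AGL86 and AGL92, adjacent genes on chromosome 1 with no other gene of the table between them, rose by less. AGL86 had 1.10, 0.876 and 1.63 RPKM in WT 1 to 3 and 5.84, 3.17 and 3.55 RPKM in DD25::IaaH 1 to 3, with separate groups. Its mean rose from 1.20 ± 0.388 to 4.19 ± 1.44 RPKM (SD, n = 3). On the log2 scale AGL86 rose by 1.44 ± 0.29 (SE), with a limma adjusted p of 0.0109. AGL92 had 0.605, 0.320 and 1.27 RPKM in WT 1 to 3 and 5.001, 3.53 and 2.13 RPKM in DD25::IaaH 1 to 3. The gap between the highest WT and the lowest DD25::IaaH library was small for AGL92. Its mean rose from 0.731 ± 0.486 to 3.55 ± 1.44 RPKM (SD, n = 3). On the log2 scale AGL92 rose by 1.73 ± 0.38 (SE), with a limma adjusted p of 0.0160. Both calls depended on single libraries. AGL92 had adjusted p of 0.0523 without WT 1, 0.0534 without WT 2, 0.0745 without DD25::IaaH 1, 0.0582 without DD25::IaaH 2 and 0.282 with both WT 1 and WT 2 left out. AGL86 had 0.0516 without DD25::IaaH 1 and 0.223 with both WT 1 and WT 2 left out.

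AGL80, the central cell factor, had nearly equal levels in both genotypes. It measured 5.24, 3.37 and 4.81 RPKM in WT 1 to 3 and 5.04, 5.88 and 3.90 RPKM in DD25::IaaH 1 to 3, and the groups overlapped. It was read well enough to be compared, with 191 reads in WT and 144 in DD25::IaaH. The log2 fold change was 0.13 with a 95% interval of -0.38 to 0.65 and a limma adjusted p of 0.756, and its sign turned without WT 2 (-0.04). The ratio of PHE1 to AGL80 within a library was 0.498, 1.46 and 0.619 in WT and 19.5, 11.9 and 15.7 in DD25::IaaH. These ratios were separate between genotypes, a log2 difference of 4.33 with a two-sided exact permutation p of 0.10, the smallest possible, or 0.20 adjusted over the 2 ratios compared. The ratio restates the values of PHE1 and AGL80 given above and is no separate evidence. AGL48 was low, with 0.403, 0.401 and 0 RPKM in WT 1 to 3 and 2.00, 0.276 and 1.28 RPKM in DD25::IaaH 1 to 3. DD25::IaaH 2 lay within the range of WT, at 2 reads. AGL48 had a log2 fold change of 1.03 with a 95% interval of -0.10 to 2.16 and a limma adjusted p of 0.213.

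The order of the genes by level differed between the genotypes. In WT AGL80 came first by mean at 4.47 RPKM, followed by PHE1, PHE2 and AGL35, and the ranges of all neighbours in the order overlapped. In DD25::IaaH the order was PHE1, PHE2, AGL35, AGL80, AGL86, AGL36, AGL92, AGL90, AGL48 and AGL34. There PHE1 was above PHE2 and AGL35 above AGL80 without overlap. PHE2 and AGL35 overlapped in range, although PHE2 was higher within each of the 3 libraries, and AGL80, AGL86, AGL36 and AGL92 could not be ranked beyond their spread. AGL92 lay above AGL90 without overlap but narrowly, with a lowest value of 2.13 RPKM against a highest of 2.03 RPKM. AGL48 lay above AGL34 without overlap too. The lowest AGL48 value and the highest AGL34 value rested on 2 reads each, so the order of this pair is not settled.

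The summed level of the 10 genes was 14.0, 13.7 and 18.9 RPKM in WT 1 to 3 and 213, 126 and 126 RPKM in DD25::IaaH 1 to 3. PHE1, PHE2 and AGL35 together held 45.0%, 61.8% and 57.4% of that sum in WT and 88.2%, 86.0% and 87.8% in DD25::IaaH. AGL80 held 24.6% to 37.5% of it in WT and 2.37% to 4.67% in DD25::IaaH. DD25::IaaH 1 gave the highest value of its group for 9 of the 10 genes and for all 7 called genes. Over the 1723 genes called higher, 48.2% had their highest value in that library.

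**Figure D3:**
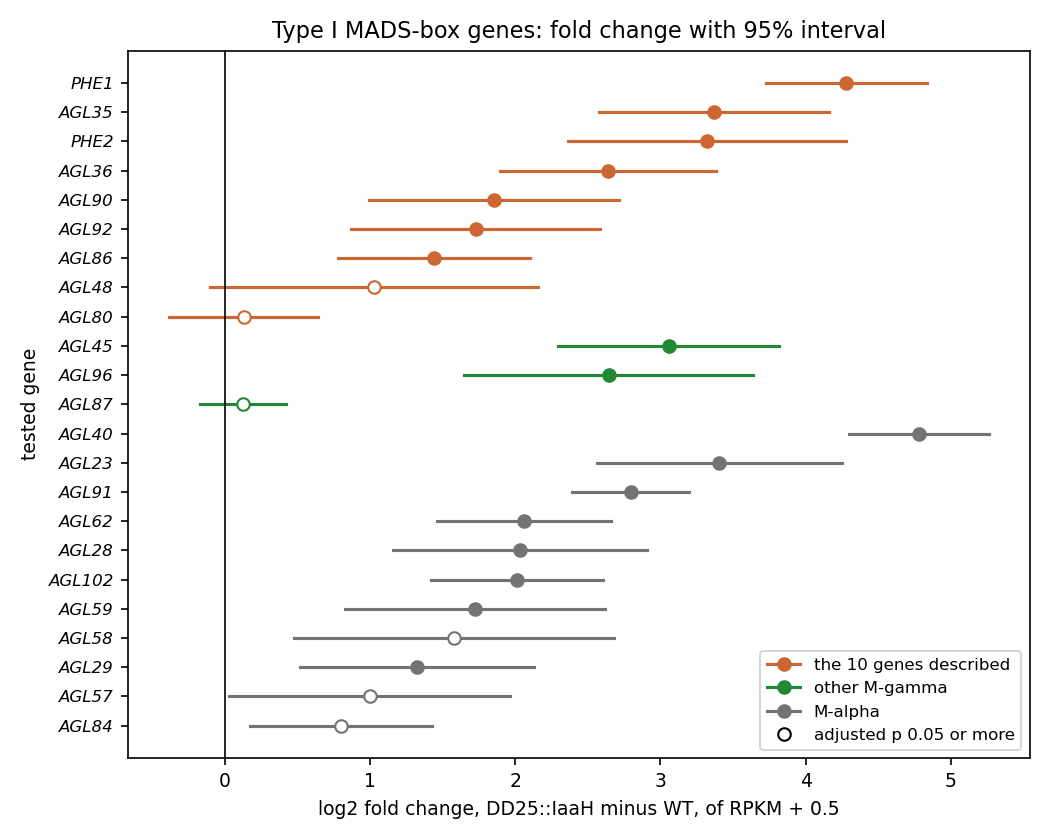
Fitted log2 fold change, DD25::IaaH minus WT on the RPKM + 0.5 scale, with its 95% interval for each tested type I MADS-box gene (3 libraries per genotype); filled points have an adjusted p under 0.05. PHE1 (4.28), AGL35 (3.37) and PHE2 (3.32) lead the 10 genes described, and AGL80 (0.13) and AGL87 (0.13) lie near 0.

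Genes beside the M-gamma genes on the chromosome were compared in the same fit. Of 45 other genes within 3 places on either side, 24 were tested, 1 was higher and 1 was lower, and their median log2 fold change was 0.00056. Across the 20880 genes of the fit the shares were 8.25% for a rise and 6.72% for a fall. Whether the neighbours depart from these shares was not tested. PHE1 and PHE2 lie 10.4 kb apart on chromosome 1 with 2 genes between them. The cell wall enzyme gene XTH17 between them was below the filter, with means of 0.197 RPKM (WT) and 0.177 RPKM (DD25::IaaH). The other, CBSX6, was the neighbour called higher, from 9.95 to 14.6 RPKM, a log2 fold change of 0.53. The neighbour called lower was AT5G48680, beside AGL80, with a log2 fold change of -0.81. In the fit, then, the rises at PHE1 and PHE2 were 3.32 or more on the log2 scale, while the tested gene between them had 0.53. Beyond PHE1, 14.0 kb away, lies the M-alpha gene AGL23, which rose from 0.682 ± 0.530 to 11.5 ± 3.77 RPKM (SD, n = 3). None of the 10 genes overlapped a neighbouring gene.

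**Figure D4:**
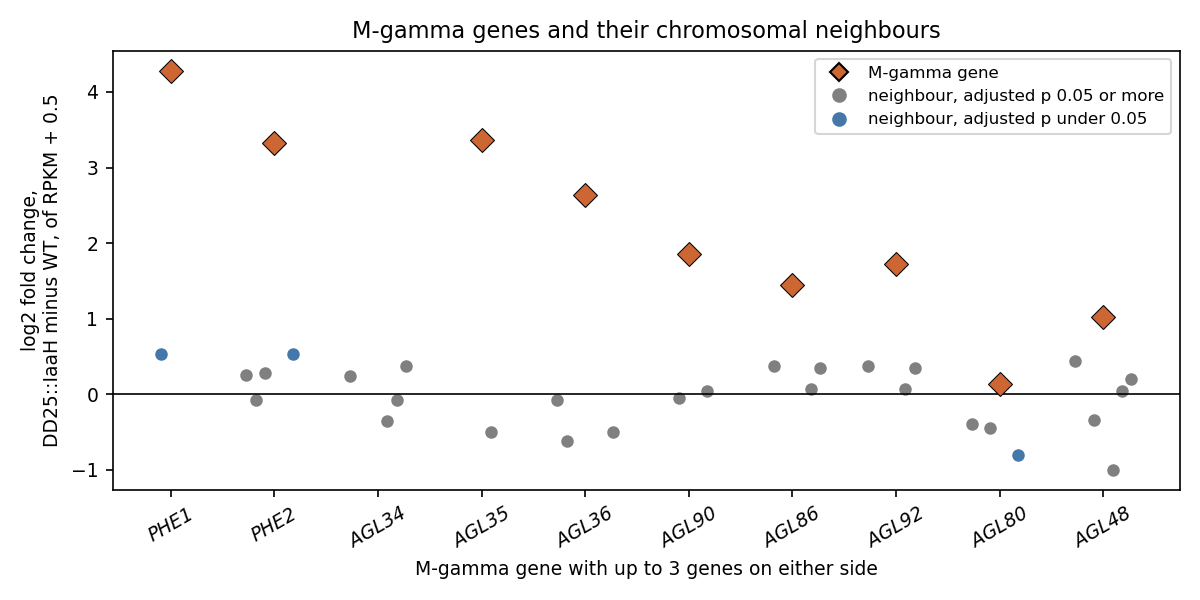
Log2 fold change, DD25::IaaH minus WT on the RPKM + 0.5 scale, of each tested M-gamma gene (diamonds) and of the tested genes within 3 places on either side, M-gamma genes left out (circles, in chromosome order; blue for an adjusted p under 0.05). CBSX6 (0.53) appears with PHE1 and with PHE2, and the circles stay between -0.996 and 0.53.

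The CArG box, the DNA element that MADS-box proteins bind, was searched for on both strands in the 250 bases before each annotated gene start (the element is its own reverse complement in pattern). It was present before 2.52% of 27443 protein-coding genes. Of the 10 genes only AGL35 had one, CCTAAAAAGG at chr5:9350692-9350701 (TAIR10.1), 120 bases before the gene start. The search covers these letters and this window alone.

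Of 6 further M-gamma genes, AGL45, AGL96 and AGL87 were tested and 2 rose, where 8.25% of all tested genes were called higher. AGL96 reached the filter only through its DD25::IaaH libraries. The median log2 difference over all 6 without the filter was 0.63, against -0.07 over all loci with any read. AGL45, at AT3G05860, rose from 0.572 ± 0.475 to 7.88 ± 1.03 RPKM (SD, n = 3). Its log2 fold change was 3.06, with a limma adjusted p of 0.000363. AGL96 had 0.694, 0.153 and 0.143 RPKM in WT 1 to 3 and 8.80, 3.59 and 2.71 RPKM in DD25::IaaH 1 to 3, a log2 fold change of 2.64 with a limma adjusted p of 0.00407. AGL87 was the most abundant M-gamma gene of the seeds, with WT at 112 ± 16.8 RPKM and DD25::IaaH at 121 ± 6.02 RPKM (SD, n = 3); its adjusted p was 0.581. AGL41, AGL46 and AGL95 were below the filter.

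The M-alpha partners showed calls in the same direction. Of 22 listed genes 11 were tested, 8 rose and 3 did not pass, where 8.25% of all tested genes were called higher. Of the 11 tested, 4 reached the filter only through their DD25::IaaH libraries, and the median log2 difference over all 22 without the filter was 0.65. AGL62, the partner of PHE1 that holds back wall formation in the endosperm, had 0.845, 0.395 and 0.736 RPKM in WT 1 to 3 and 4.61, 3.54 and 4.76 RPKM in DD25::IaaH 1 to 3. Its log2 fold change was 2.06, with a limma adjusted p of 0.00091. AGL61, the partner of AGL80, had 0.181, 0 and 0.669 RPKM in WT 1 to 3 and 1.20, 0 and 0.823 RPKM in DD25::IaaH 1 to 3. It was below the filter, and the overlap of its groups at such low values does not show equal levels. AGL40, AGL91 and AGL23 had the lowest adjusted p of the list, with log2 fold changes of 4.78, 2.79 and 3.41.

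Of 8 genes listed as regulators of imprinting, Polycomb subunits and DNA methylation genes, 1 rose, where 8.25% of all tested genes were called higher. It was FIS2, the seed-specific subunit of FIS-PRC2, with 1.57, 1.02 and 1.91 RPKM in WT 1 to 3 and 4.22, 3.58 and 3.65 RPKM in DD25::IaaH 1 to 3. Its log2 fold change was 1.13, with a limma adjusted p of 0.0149. Another subunit gene, FIE, averaged 36.8 ± 3.04 RPKM for WT and 30.5 ± 1.85 RPKM for DD25::IaaH (SD, n = 3), with an adjusted p of 0.184. MSI1 and CLF had log2 fold changes of 0.22 and -0.16 and did not pass. Of 8 regulators of endosperm growth 4 rose, the cytokinin oxidase CKX2, the auxin synthesis genes TAR1 and YUC10, and the WRKY factor MINI3, where 8.25% of all tested genes were called higher. TAR1 and MINI3 reached the filter only through their DD25::IaaH libraries. MINI3 had 0.115, 0 and 0 RPKM in WT 1 to 3 and 0.954, 2.21 and 2.18 RPKM in DD25::IaaH 1 to 3, with a log2 fold change of 2.03. The median log2 fold change over the list was 0.63.

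The 5 genes whose profiles lay nearest to that of PHE1 were found among 19311 tested genes whose mean reached 1 RPKM, the 10 described left out. Nearness was the root mean square distance of log2(RPKM + 0.5) over the 6 libraries, each profile centred on its own mean. They were AT5G04347, AT3G24060, AT2G03900, annotated as a transcribed pseudogene, MPK10, a mitogen-activated protein kinase, and FOLB1, at distances of 0.14, 0.17, 0.18, 0.22 and 0.23 on the log2 scale. MPK10 had 0.951, 2.65 and 0.969 RPKM in WT 1 to 3 and 59.5, 29.2 and 25.7 RPKM in DD25::IaaH 1 to 3. Like PHE1, it was highest in WT 2 among the WT libraries and in DD25::IaaH 1 among the others. These genes were chosen for profiles near that of PHE1, so such a likeness is part of the choice. FOLB1 had 2.04, 3.55 and 2.60 RPKM in WT 1 to 3 and 70.9, 37.0 and 45.1 RPKM in DD25::IaaH 1 to 3.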

How the data were processed

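RNA from whole seeds was sequenced in 3 WT and 3 DD25::IaaH libraries; per the labels' protocols, polyadenylated RNA was read as pairs of 125 bases. The authors deposited 1 table of RPKM values for 33323 loci; TopHat2 2.1.0 and the build TAIR10 are named per the submitters' processing notes, and the sources used here give neither the counting tool nor a strand setting. Gene names, gene order and sequence came from RefSeq TAIR10.1, matched by locus identifier for 32835 loci. The genes described and all lists were chosen with earlier results of these data known. Nothing shows whether replicates came from separate plants beyond the design text, so p-values measure the spread between these libraries.

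Values were transformed to log2(RPKM + 0.5), genes whose mean reached 0.5 RPKM were kept, and limma 3.58.1 in R 4.3.3 was fitted with a variance trend and genotype alone, two-sided, adjusted by Benjamini and Hochberg's method over all tested genes and called under 0.05. Log2 fold changes are on this scale and understate the change of low genes. The fit was also run on 10 simulated data sets with 200 changed genes and the same dispersion of 0.05 for every gene. The lowest genes were not among those changed, so the simulation does not speak for them. Each library's depth and whole reads were rebuilt from the RPKM steps. Of the 31475 loci above 0, 99.2% gave whole reads within 0.01 reads in all libraries, at a length between 30 and 20000 bases. At the RefSeq exon length 29.0% did. For the others a length giving whole reads was searched for, so the 99.2% is not a test of the rebuilt reads. Among loci with whole reads at the RefSeq exon length, those with 1 to 4 rebuilt reads in a library were taken. Of these, 56.3% to 60.6% had 2 or 4, so mates of a pair may be counted apart. Counting intervals (exact, 95%) and floors of 3 reads cover counting error only and take reads as independent. Matches of 125-base stretches were found with bwa 0.7.19. All 10 genes were named; of each list the up to 4 tested genes with the lowest adjusted p were named, with AGL62 and AGL61; and the 5 profiles nearest to PHE1. Genes beside the M-gamma genes and single markers were named after their values were seen. Alternatives changed the pseudocount, filter, scaling and trend, left out libraries, added the replicate number, or used voom on rebuilt reads.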

Additional observations from a re-analysis of the deposited data

How the results depend on the processing

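Over 15 alternatives, 121 of 132 recomputed fold changes of the 9 tested M-gamma genes kept their direction and their side of the threshold, 10 lost a call and 1, AGL80 without WT 2, changed sign (-0.0376, against up to 0.28 without any other 1 library). The lost calls were those of AGL90, AGL86 and AGL92 given in the report, and the cause was not tested. Leaving out 1 library gave 4 to 7 called M-gamma genes and 1912 to 4133 called genes in all, against 7 and 3127; the lowest of both came without DD25::IaaH 1, and 2059, 1978 and 2015 genes were called without WT 1, WT 2 and DD25::IaaH 3. Without WT 1 and WT 2 together 4 M-gamma genes and 1063 genes were called, where the lone WT library is assumed to vary like the others. The other settings gave 2429 to 3388 genes and 6 or 7 M-gamma genes, 6 only with a filter at a mean of 2 RPKM, which AGL90 did not reach. Same-numbered libraries showed no shared deviation (correlations of -0.10 to -0.03 across genes). This cannot tell whether same-numbered samples were grown or handled together. With the replicate number as a block 2429 genes and 7 M-gamma genes were called. Depth limits AGL34, AGL48, AGL36 and AGL90 most, which had 12 reads or fewer over the WT libraries.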
